A study of Mus musculus with 4 samples.

Results

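The 10 marker genes of the choroid plexus named here were followed across the brains of 4 mice. The genes were Ttr, Kl, Folr1, Clic6, Sostdc1, Aqp1, Slc4a5, Otx2, Tmem72 and Enpp2, and their probe sets were taken wherever the platform annotation gave one of these symbols as the only gene. By this rule 15 of the 45037 probe sets tested, for 9 of the 10 genes, were members. No probe set in the annotation used gave Enpp2, which encodes the lysophospholipase D autotaxin, as its only gene. Enpp2 was therefore not analysed here. The mice were 2 Bcas1 knockout (-/-) and 2 wild-type (+/+) males of 8 to 9 weeks, bred from heterozygous C57BL/6 parents. One array was hybridised per mouse with RNA of the dissected brain, which the sample descriptions call cerebrum. How the Bcas1 allele was disrupted, and which ventricles the dissected tissue held, are not stated in the labels.

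The choroid plexus is a fold of vascularised tissue in each brain ventricle, covered by an epithelium that secretes most of the cerebrospinal fluid. Its epithelial cells carry ions and water into the ventricle and release carrier proteins, hormones and growth factors. Because it is a small and loosely attached structure, its share of a brain sample can depend on dissection. In RNA of whole tissue, fewer choroid plexus cells and less RNA per cell cannot be told apart.

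Levels are log2 values from robust multi-array averaging (RMA), so a difference of 1 is a doubling, and each probe set has its own scale, on which only arrays can be compared. Array medians were 6.49 to 6.51. The targeted gene checks the labels. The brightest Bcas1 probe set measured 11.05 and 10.75 in the knockout arrays, against 12.17 and 12.21 in the wild-type arrays, while the dimmer Bcas1 probe sets were 0.64 and 0.765 higher in the knockout (0.585 and 0.505 without knockout 2), and whether the disrupted part of the gene covers any of them is not known here. The array of knockout mouse 2 stood apart in genes known from nasal tissue. Obp1a, an odorant-binding protein, measured 3.46 in knockout 1 and 8.92 in knockout 2, against 3.41 and 4.15 in the wild types. All 7 measured genes of the nasal list were highest in knockout 2, against 37.7% of all genes. The excess was small in Omp (6.56, against at most 6.42 on the other arrays) and Reg3g (4.62, against at most 4.32). Both genes were named after their values were seen. Many differences and list medians are also given without that array.

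Promoters are shown for the members whose promoter window holds, on either strand, the core TAATC of the site that OTX2-type homeodomain proteins are known to bind, because Otx2 is itself a member and is known as a regulator of choroid plexus development. Each window runs from 250 bases before to 50 bases after a gene start of the RefSeq annotation, build GRCm38.p6, is written 5′ to 3′ on the gene's strand, and has each core in capitals. The Tmem72 window lies on the minus strand at chr6:116716709-116717008, the Otx2 window on the minus strand at chr14:48665060-48665359, and the Kl window on the plus strand at chr5:150952357-150952656.
Tmem72: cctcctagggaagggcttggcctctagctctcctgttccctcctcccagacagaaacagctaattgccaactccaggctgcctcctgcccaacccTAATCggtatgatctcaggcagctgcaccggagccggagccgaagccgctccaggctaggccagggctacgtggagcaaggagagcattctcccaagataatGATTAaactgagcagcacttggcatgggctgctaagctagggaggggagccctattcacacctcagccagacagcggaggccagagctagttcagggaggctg
Otx2: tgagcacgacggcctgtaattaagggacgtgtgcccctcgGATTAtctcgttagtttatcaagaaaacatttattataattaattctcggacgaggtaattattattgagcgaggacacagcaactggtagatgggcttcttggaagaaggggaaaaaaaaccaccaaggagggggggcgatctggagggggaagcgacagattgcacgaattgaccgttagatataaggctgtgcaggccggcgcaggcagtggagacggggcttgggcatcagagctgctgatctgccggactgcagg
Kl: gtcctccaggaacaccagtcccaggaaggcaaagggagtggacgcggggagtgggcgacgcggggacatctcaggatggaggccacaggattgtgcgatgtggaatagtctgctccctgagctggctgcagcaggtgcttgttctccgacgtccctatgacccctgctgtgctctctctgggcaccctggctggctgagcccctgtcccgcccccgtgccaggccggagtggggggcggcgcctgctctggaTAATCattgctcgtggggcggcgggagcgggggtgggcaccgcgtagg
The cores began at bases 96 and 198 of the Tmem72 window, at base 41 of this Otx2 window and at base 253 of the Kl window, counted from 1. Of the 9 measured members, 5 had windows in the RefSeq table, 8 windows in all, of which Otx2 had 4. The core was in 3 of the 8 windows and in 22.0% of all 32851 windows. The longer form TAATCC, which contains the core and was also searched on both strands, was in 1 of the 8, the Otx2 window shown, and in 7.06% of all windows. These matches describe the letters and do not show binding.

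No member probe set passed the test between genotypes. Of the 15, 12 had a positive difference (knockout minus wild type), 2 a negative one and 1 was 0, where 48.1% of all probe sets were positive. Without knockout 2 the counts were 9 positive and 6 negative, where 42.8% of all genes, each by its brightest probe set, were positive. With limma and Benjamini-Hochberg adjustment over all probe sets, 0 of the 15 passed in either direction and each adjusted p was 1. Differences of this size could hardly be called with these arrays, so the lack of calls does not show equal levels. In simulated data the fit called 22 of 50 planted differences of 1 and 15 of 50 of -1. The member differences were at most 0.355, and none so small was simulated. Even the brightest Bcas1 probe set, at -1.29, fell short of the threshold (limma, adjusted p 0.742). At an unadjusted p under 0.05 limma counted 2 of the 15, against 3.42% of all probe sets. Among all probe sets 0.0% passed as higher and 0.00444% as lower in the knockout. Both knockout arrays lay above both wild-type arrays in 3 of the 15, against 13.9% of all probe sets, and below them in 1, against 13.2%. In 11 of the 15 the larger gap between mice of 1 genotype exceeded the difference between genotypes. With 2 mice per genotype the smallest two-sided p of an exact permutation test is 0.333, so a single gene cannot be tested that way here. Each array is a separate mouse per the labels.

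**Figure D1:**
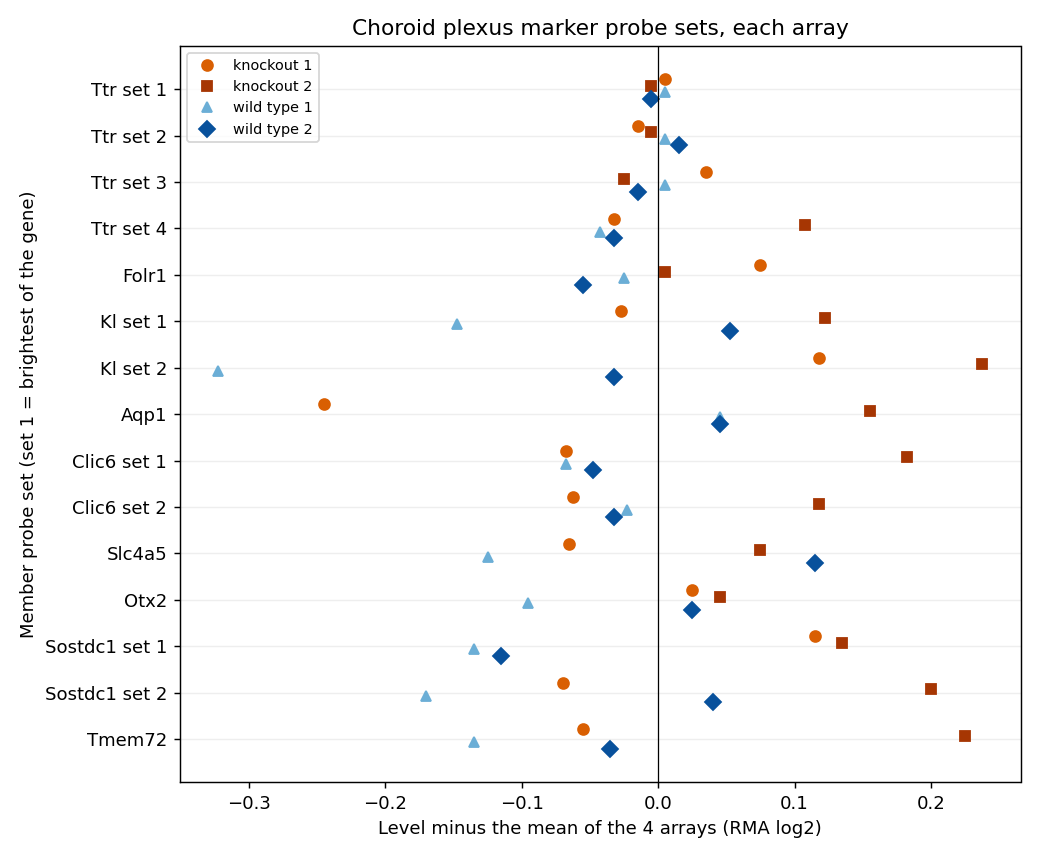
Level of each member probe set on each array minus the mean of the 4 arrays (horizontal axis, RMA log2), with orange symbols for knockout and blue symbols for wild-type mice, and set 1 the brightest probe set of a gene. Knockout 2 is alone the highest in 10 of 15 probe sets, and the brightest 3 Ttr sets span at most 0.06.

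Ttr encodes transthyretin, the carrier of thyroid hormone and of retinol-binding protein that the choroid plexus secretes into the cerebrospinal fluid. Its 3 brightest probe sets had the narrowest ranges over the arrays among the 15 member probe sets. Its brightest probe set, an _x_at set whose probes can bind related transcripts, measured 14.52 and 14.51 in the knockout, against 14.52 and 14.51 in the wild type. The level lay 0.27 below the highest value among the probe sets tested (14.79), where differences can be compressed. The second set measured 14.29 and 14.30 in the knockout, against 14.31 and 14.32 in the wild type. Its groups did not overlap, though the difference was only -0.02 (SE 0.069). The third set was at 13.77 and 13.71 in the knockout, against 13.74 and 13.72 in the wild type. The dimmest of the 4 sets measured 13.61 and 13.75 in the knockout, against 13.60 and 13.61 in the wild type, with 3 arrays close together and knockout 2 above them, and the difference of 0.075 was 0.005 without knockout 2. The 4 sets thus differed by -0.02 to 0.075 between genotypes, and their ranges over the arrays were 0.01 to 0.15.

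Folr1 and Kl encode receptors of the choroid plexus. Folr1, folate receptor alpha, takes up folate for delivery to the cerebrospinal fluid. Its probe set measured 7.79 and 7.72 in the knockout, against 7.69 and 7.66 in the wild type, so that the groups did not overlap but the difference of 0.08 (SE 0.073) was close to the gap of 0.07 between the knockout mice. The Folr1 difference was 0.115 without knockout 2. Kl encodes alpha-Klotho, the coreceptor of the hormone FGF23, known chiefly from kidney tubules and the choroid plexus. The brighter Kl set measured 7.41 and 7.56 in the knockout, against 7.29 and 7.49 in the wild type, with overlapping groups and a difference of 0.095 (SE 0.11), which was 0.02 without knockout 2. The dimmer Kl set measured 4.48 and 4.60 in the knockout, against 4.04 and 4.33 in the wild type. Its difference of 0.355 (SE 0.12), 1.28-fold, was the largest among the members, with an unadjusted p of 0.036 and an adjusted p of 1 in limma. Without knockout 2 the difference of this dimmer set was 0.295. At so low a level a dim signal could not be separated from background, since no detection calls came with the values. Both Kl sets ordered the arrays alike in that wild type 1 was lowest and knockout 2 highest.

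The genes of ion and water transport did not share a direction. Aqp1, the water channel of the ventricular face of the epithelium, measured 6.48 and 6.88 in the knockout, against 6.77 and 6.77 in the wild type. The knockout mice lay on either side of the wild types, 0.40 apart, and the difference was -0.09 (SE 0.15). Without knockout 1 the difference of Aqp1 was 0.11, and without knockout 2 it was -0.29. Clic6, a member of the chloride intracellular channel family, had a brighter set at 8.84 and 9.09 in the knockout, against 8.84 and 8.86 in the wild type. Its other set measured 7.98 and 8.16 in the knockout, against 8.02 and 8.01 in the wild type. In both sets knockout 2 stood above 3 arrays that lay within 0.04 of each other. The Clic6 difference was 0.115 (SE 0.11) in the brighter set and -0.01 without knockout 2. In the other set it was 0.055, and -0.035 without knockout 2. Slc4a5, a sodium bicarbonate cotransporter, measured 5.79 and 5.93 in the knockout, against 5.73 and 5.97 in the wild type, a difference of 0.01 (SE 0.11), and -0.06 without knockout 2. There the mice differed within each genotype, by 0.14 in the knockout and 0.24 in the wild type, and not between genotypes beyond that spread.

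Of the promoter windows of Otx2, the homeodomain transcription factor, only the window holding the core is shown above. Otx2 measured 7.68 and 7.70 in the knockout, against 7.56 and 7.68 in the wild type. Wild type 1 was lower and the other 3 arrays lay within 0.02, giving a difference of 0.07 (SE 0.079), which was 0.06 without knockout 2. Sostdc1, a secreted antagonist of Wnt and BMP signals, had the clearest separation between genotypes. Its brighter set measured 7.66 and 7.68 in the knockout, against 7.41 and 7.43 in the wild type, so the gap between mice of 1 genotype was 0.02 while the genotypes stood 0.25 apart (SE 0.069, 1.19-fold). The unadjusted p was 0.017 and the adjusted p 1 in limma. Without knockout 2 the difference of the brighter set was 0.24. The dimmer Sostdc1 set did not show that separation. It measured 6.69 and 6.96 in the knockout, against 6.59 and 6.80 in the wild type, a difference of 0.13 (SE 0.13) with overlapping groups, which was -0.005 without knockout 2. The mean of both sets differed by 0.19. Tmem72, a transmembrane protein, measured 5.48 and 5.76 in the knockout, against 5.40 and 5.50 in the wild type. Its difference of 0.17 (SE 0.12) was 0.03 without knockout 2.

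**Figure D2:**
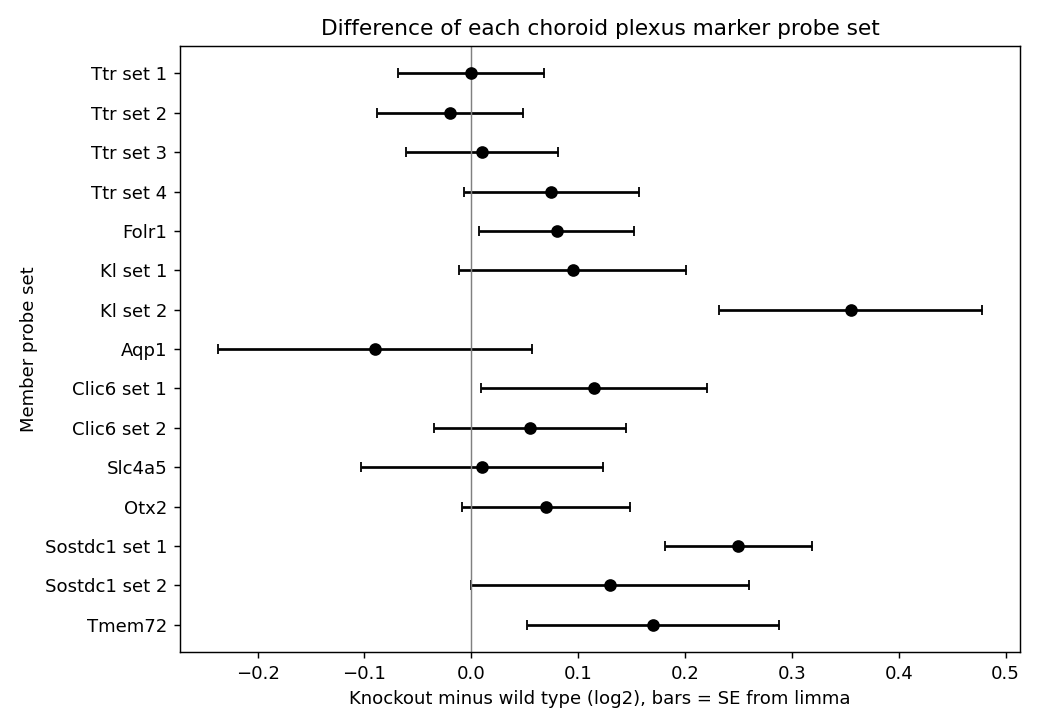
Difference of each member probe set, knockout minus wild type (horizontal axis, log2), with bars for the standard error from limma (n = 2 arrays per genotype). The differences run from -0.09 for Aqp1 to 0.355 for the dimmer Kl set, and none passed the adjusted threshold.

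Most member probe sets outside Ttr shared the highest and the lowest array. Over all 15 member probe sets, knockout 2 was alone the highest in 10 and wild type 1 alone the lowest in 8. Among the Ttr sets only the dimmest had this order, and in the third Ttr set knockout 2 was alone the lowest. Leaving out Ttr, knockout 2 was alone the highest array in 9 of 11 member probe sets, against 32.1% of the 27786 probe sets between the lowest and highest mean level of these 11. Wild type 1 was alone the lowest in 7 of the 11, against 22.7%. The median level relative to the mean of the 4 arrays was -0.055 in knockout 1 and 0.135 in knockout 2, against -0.125 in wild type 1 and -0.0325 in wild type 2. Over the probe sets of that level range these medians were -0.0125, 0.015, 0 and 0 in the same order. In 8 of the 11 the mouse numbered 2 was above the mouse numbered 1 in both genotypes, against 31.0% of probe sets of that range. The 11 sets come from 8 genes and probe sets of 1 gene share their RNA, so these counts describe the arrays and were not tested. Over the 9 genes, each by its brightest set, the median difference was 0.08, against 0.005 over all 18193 genes, and 7 of the 9 were positive, against 51.7%. Without knockout 2 that median was 0.02, against -0.015 over all genes, and without wild type 1 the member median was 0.01.

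A further 28 genes known from the choroid plexus were listed, and 26 were measured. With limma 0 of the 26 passed in either direction, where 0.0% of all genes passed as higher and 0.0055% as lower. At an unadjusted p under 0.05 limma counted 2 of the 26, against 2.75% of all genes. The median difference was 0.075 with 21 positive. Without knockout 2 the median turned to -0.0325, with 11 of the 26 positive, against a median of -0.015 and 42.8% positive over all genes. Both knockout arrays lay above both wild types in 5 of them and below in 0, against 15.5% and 12.8% of all genes. Igf2, an insulin-like growth factor made by choroid plexus and meninges, measured 10.39 ± 0.014 in the knockout, against 10.05 ± 0.071 in the wild type (SD, n = 2 each), a difference of 0.34 (SE 0.076). Steap1, a transmembrane protein of the STEAP family, measured 7.05 and 7.08 in the knockout, against 6.81 and 6.75 in the wild type, a difference of 0.285 (SE 0.072). The other 3 that did not overlap, named after their values were seen, were Igfbp2, Col8a1 and Ecrg4, with differences of 0.18, 0.16 and 0.185. Without knockout 2 the differences were 0.115 for Igfbp2, 0.195 for Col8a1, 0.175 for Ecrg4, 0.35 for Igf2 and 0.27 for Steap1. In Igf2, Steap1 and Ecrg4 the 2 knockout arrays were within 0.03 of each other, as in the brighter Sostdc1 set. Here and in the lists below each gene is given by its brightest set alone. Igf2 and Steap1 have 2 sets each, and Ecrg4 and Col8a1 have 3, of which the dimmer ones are not shown. Lmx1a, a transcription factor of the dorsal midline from which choroid plexus arises, measured 5.04 and 5.36 in the knockout, against 4.79 and 5.05 in the wild type, with overlapping groups and a difference of 0.28, which was 0.12 without knockout 2.

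The order that Aqp1 showed, with knockout 1 lowest and knockout 2 highest, was seen in 10 of the 26, where 16.2% of all genes had it. Knockout 1 was the lowest array in 38.5% of the 26 and in 34.2% of all genes. Among them, and named after their values were seen, was Kcnj13, an apical potassium channel, at 8.41 and 8.73 in the knockout, against 8.72 and 8.67 in the wild type. Calml4, a calmodulin-like protein, measured 6.98 and 7.44 in the knockout, against 7.23 and 7.21 in the wild type. Cldn2, a tight junction protein of leaky epithelia, measured 6.52 and 6.87 in the knockout, against 6.69 and 6.76 in the wild type. In these the wild types lay close together between the knockout mice. Knockout 2 was highest in 19 of the 26 genes, 73.1%, against 37.7% of all genes.

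**Figure D3:**
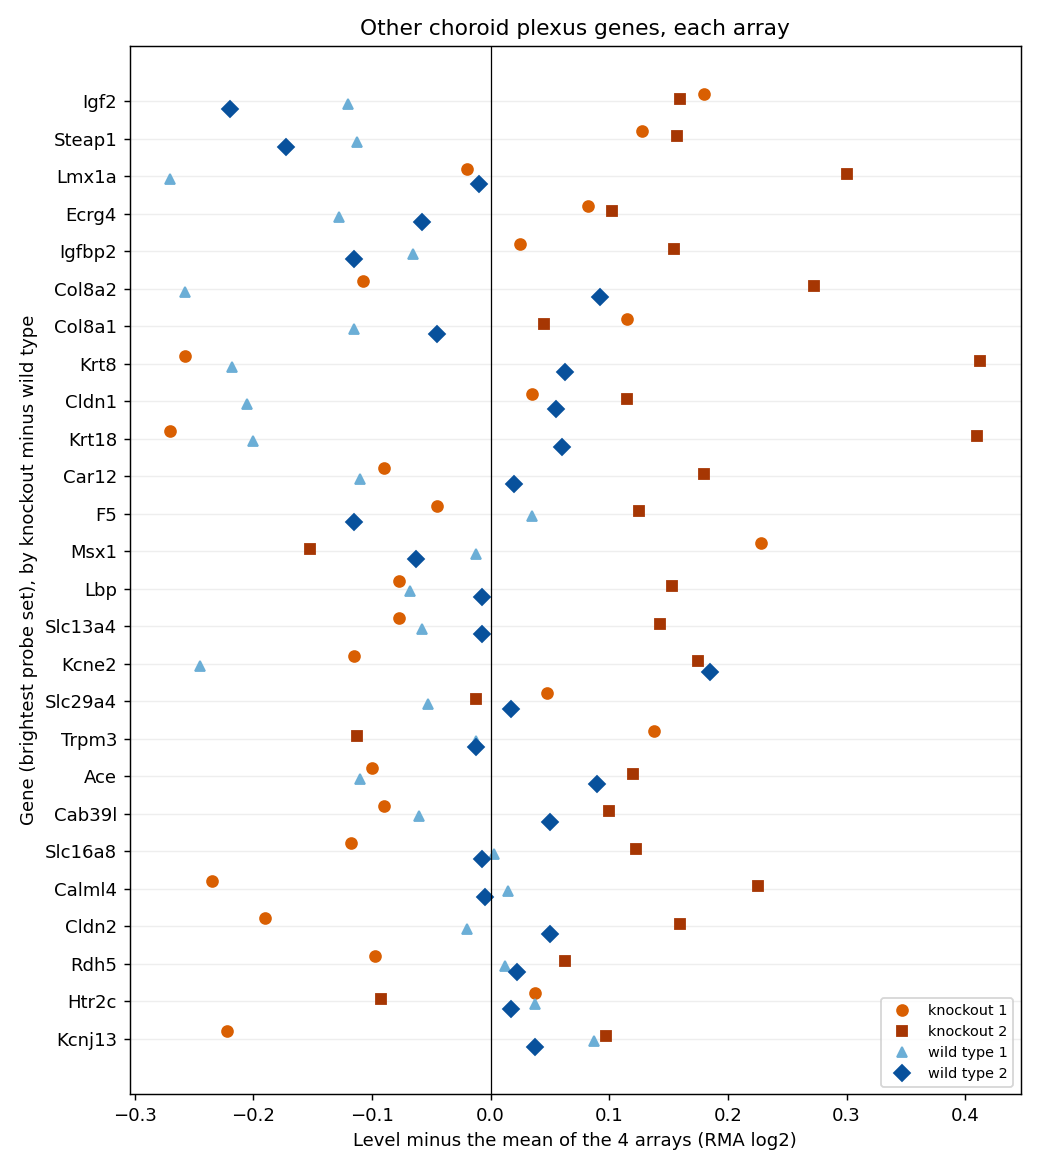
Level of 26 other choroid plexus genes on each array minus the mean of the 4 arrays (horizontal axis, RMA log2), sorted from the highest to the lowest difference between knockout and wild type. Igf2, Steap1 and Ecrg4 at the top have both knockout arrays above both wild types, while Calml4, Cldn2 and Kcnj13 near the bottom have the wild types between the knockout arrays.

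Genes that act with the members were also read. Of 8 measured genes of fluid secretion 6 had positive differences, with a median of 0.05, and the differences of largest size were 0.12 for the potassium channel Kcnq1, 0.105 for the cotransporter Slc12a4 and 0.075 for the carbonic anhydrase Car2. Without knockout 2 the difference was -0.06 for Kcnq1, 0.115 for Slc12a4 and 0.025 for Car2. Of 9 genes linked to thyroid hormone or to retinol, the cargo of transthyretin, 6 were positive with a median of 0.01. Rbp4, the retinol-binding protein that transthyretin carries, measured 8.68 and 8.81 in the knockout, against 8.41 and 8.51 in the wild type. Its difference of 0.285 had an unadjusted p of 0.024 and an adjusted p of 1 in limma. Hr and the thyroid hormone receptor Thrb were at -0.115 and 0.085. Without knockout 2 Rbp4 was at 0.22, Hr at -0.095 and Thrb at 0.155. Of 6 folate genes 3 were positive, with Slc46a1, the proton-coupled folate transporter, at 6.35 and 6.46 in the knockout, against 6.25 and 6.24 in the wild type. Mthfd1 and Shmt1, enzymes of folate metabolism, were at 0.055 and -0.05. Without knockout 2 Slc46a1 was at 0.105 in place of 0.16, Mthfd1 at -0.02 and Shmt1 at 0.135.

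Of 3 genes linked to Klotho, Klb, Fgf23 and Fgfr1 differed by -0.06, -0.04 and 0.035, and by -0.245, 0.01 and 0.065 without knockout 2. All 7 genes of the Wnt and BMP list around Sostdc1 were positive, against 51.7% of all genes, with a median of 0.05. Without knockout 2 the median was -0.01 and 3 were positive, against a median of -0.015 and 42.8% positive over all genes. Lrp4, a receptor that binds Sostdc1, was at 0.10, Sost at 0.07 and Bmpr1a at 0.055. Without knockout 2 Lrp4 was at 0.075, Sost at -0.02 and Bmpr1a at -0.03. Of 8 genes that sense or remove the product of autotaxin 4 were positive and 4 negative, with a median of -0.0225. The receptors Lpar4 and Lpar1 were at -0.185 and 0.09, and the phosphatase Plpp2 at 0.12. Without knockout 2 Lpar4 was at -0.175, Lpar1 at 0.105 and Plpp2 at 0.165. In each of these 5 lists around single members, and in the fluid secretion list, 0 genes passed in limma over all genes. At an unadjusted p under 0.05 limma counted 1 of the 41 genes, Rbp4, against 2.75% of all genes. Without knockout 2 the median was 0.025 in the fluid secretion list, 0 in the thyroid hormone and retinol list, 0.005 in the folate list, 0.01 in the Klotho list and -0.015 in the autotaxin list.

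Marker lists of 3 neighbouring cell types were also highest in knockout 2. Over all genes, knockout 2 was highest in 37.7%, and the median difference without knockout 2 was -0.015. Ependymal genes of motile cilia had a median centred level of -0.046 in knockout 1 and 0.129 in knockout 2, against -0.015 and -0.054 in the wild types, with knockout 2 highest in 8 of 12. Their median difference of 0.0525 was 0.0025 without knockout 2. Hydin, a protein of the ciliary axoneme, had a difference of 0.315 (SE 0.069), Dnali1, a dynein chain, one of 0.305 and Spag6 one of 0.115. Without knockout 2 Dnali1 was at 0.025 and Spag6 at 0.035, while Hydin was at 0.33. Endothelial genes had knockout 2 highest in 7 of 9 and a median difference of 0.055, which was 0 without knockout 2, with Abcb1a, Flt1 and Itm2a at 0.165, 0.085 and 0.075, and at 0.105, 0 and 0.165 without knockout 2.

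Meningeal genes differed more between the arrays than the ependymal and endothelial lists did. All 15 were positive, 10 of the 15 had both knockout arrays above both wild types, and knockout 2 was highest in 14, with a median difference of 0.20, which was 0.12 with 11 positive without knockout 2. Of all genes 51.7% were positive, 15.5% had both knockout arrays above both wild types, and 37.7% were highest in knockout 2. Without knockout 2, 42.8% of all genes were positive, with a median of -0.015. Fmod, a matrix proteoglycan, measured 8.94 and 9.12 in the knockout, against 8.57 and 8.68 in the wild type, and Col1a1 and Col1a2 differed by 0.405 and 0.36. The difference of Fmod was 0.405, and 0.315 without knockout 2. Without knockout 2 Col1a2 was at 0.175 and Col1a1 at 0.39. The mean level of the meningeal list was 7.91 and 8.13 in the knockout, against 7.75 and 7.86 in the wild type. The mean level of the 9 members was 7.96 and 8.09 in the knockout, against 7.91 and 7.99 in the wild type. The mature oligodendrocyte list had a different order, with knockout 1 highest in 6 of 11 and knockout 2 in 2. Over all genes, knockout 1 was highest in 19.0%. Its median difference was 0.06 with 10 of 11 positive, and 0.135 with 11 positive without knockout 2. Its genes Ermn, Gjb1 and Mal differed by 0.155, 0.14 and 0.13, and by 0.135, 0.12 and 0.18 without knockout 2. With limma 0 genes of these lists passed over all genes; at an unadjusted p under 0.05 it counted 4 of the 15 meningeal, 1 of the 12 ependymal, 0 of the 9 endothelial and 0 of the 11 oligodendrocyte genes, against 2.75% of all genes. In the nasal list 6 of 7 were positive with a median of 1.01, which was -0.175 without knockout 2, with Bpifa1 and Obp2a at 2.02 and 1.135 (-0.175 and 0.115 without knockout 2), and 0 passed in limma, adjusted or at an unadjusted p under 0.05. The part of these cell types in the member differences was not tested.

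**Figure D4:**
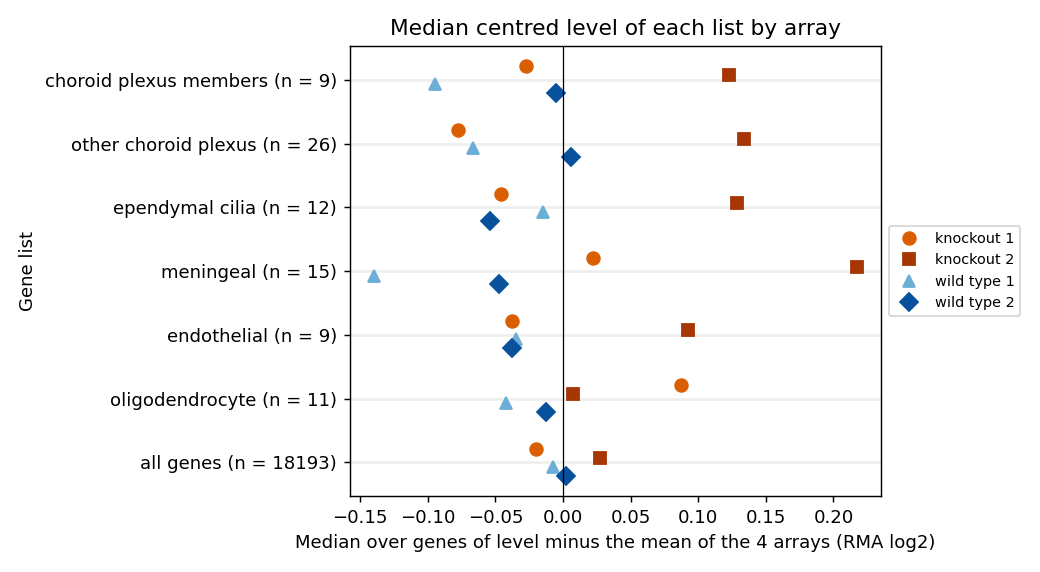
Median over the genes of each list of the level minus the mean of the 4 arrays (horizontal axis, RMA log2), 1 symbol per array, with the number of measured genes beside each list. Knockout 2 lies to the right in the choroid plexus, ependymal, meningeal and endothelial lists, up to 0.218 in the meningeal list, while knockout 1 lies to the right in the oligodendrocyte list at 0.0875. The nasal list is not drawn, since its median in knockout 2 was 1.59.

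The genes nearest to the median profile of the member genes over the arrays were found among 2863 other genes above the median level with at least the spread of that profile (0.217). Single members can lie away from it, as Aqp1 did in knockout 1, at -0.245 against -0.0275 in the profile. The measure was the root mean square distance between centred levels on the 4 arrays. Tmem74b was closest at 0.0064, followed by Tmem176a, Tpm1, Arhgap31 and Tpm4 at 0.0095 to 0.012. Tmem74b measured 7.38 and 7.54 in the knockout, against 7.32 and 7.42 in the wild type. The profile was common, since 268 of the 2863 lay within 0.05 of it.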

How the data were processed

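Brain RNA of 4 mice was measured on 1-colour Affymetrix arrays, 1 array per mouse, from 100 ng of total RNA labelled with a 3' IVT Express kit, per the labels' protocols. The deposited values are log2 levels made by the authors by RMA (per the submitters' processing notes), with no software version or settings stated there. RMA corrects background, equalises distributions between arrays and summarises each probe set, which can compress dim and very bright differences. Values carry 2 decimals and no detection calls; no depth applies, and precision is limited by the number of arrays. The 64 Affymetrix controls were dropped. Of the rest 34945 named 1 gene, 932 several and 9160 were unnamed here in the platform annotation. Each of 18193 genes is given by the probe set with the highest mean level.

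Knockout minus wild type was fitted for all 45037 probe sets with the lmFit and eBayes functions of limma 3.58.1, run in R 4.3.3. P-values are two-sided, with Benjamini-Hochberg adjustment and a threshold of 0.05. The fit had 2 residual and 2.74 prior degrees of freedom, and was tested on simulated data. Members and lists were chosen with earlier results of these data known. The text names all members, the 3 genes of largest absolute difference in each of 12 other lists, the 5 genes nearest in profile and Bcas1; others are marked. Alternatives were median centring, a second quantile normalization, leaving out dim probe sets, a variance trend on intensity with robust fitting, mouse number as a block, leaving out each array and the mean of all probe sets of a gene.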

Additional observations from a re-analysis of the deposited data

How the results depend on the processing

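The count of member probe sets past the threshold was 0 in limma under all 9 alternatives, and the median member difference stayed positive, from 0.01 to 0.13, over its 10 alternatives. Leaving out 1 array gave both ends, 0.01 without wild type 1 and 0.13 without wild type 2. The median range of the members over the arrays was 0.24, and 0.247 or 0.26 with the other scalings. Of all probe sets, 2 passed as reported; 1 did above the median level, 10 with the intensity trend, 0 with mouse number as a replicate block, and 0 without any 1 array. Directions of members reversed only when an array was left out: Aqp1 was 0.11 without knockout 1 (-0.29 without knockout 2), Clic6 -0.01 and Slc4a5 -0.06 without knockout 2, and Kl -0.005 and Slc4a5 -0.11 without wild type 1. Sostdc1 ranged from 0.19 to 0.266, with adjusted p from 0.573 to 1. Leaving out knockout 2 was also applied to the other gene lists and their named genes, a choice made after seeing the data, and the other choroid plexus list then had a median of -0.0325. The filter on dim probe sets left out Slc4a5 and Tmem72, which have no value there. Deviations of equally numbered arrays from their group means correlated at 0.241 over probe sets, which are not independent. With 2 mice per genotype the deviations mirror each other, so both numbered pairs share this value and crossed pairs must give -0.241. The numbers are thus not shown to pair the mice, and the block moved no other call. No detection calls accompany the values, so signal over background limits the dim Kl set, Slc4a5 and Tmem72. The same limit holds for dim genes of the other lists. Examples over the arrays are Fgf23 (3.94 to 4.16), Spag6 (3.76 to 4.04), Thrb (4.89 to 5.20), Kcnq1 (5.22 to 5.58) and Hydin (5.33 to 5.66).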
